A study of Homo sapiens with 15 samples.

Results

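The genes described here belong to homologous recombination, the Fanconi anaemia pathway and the DNA damage checkpoint. They are 35 genes chosen by symbol, with no rule on a measured value but with earlier results of these data known. Every probe set whose only gene symbol is one of them was taken. Of the 35 genes, 31 had at least 1 probe set, which gave 69 probe sets of the 54675 on the array. BRCA2, FANCA, FANCD2 and RBBP8 were named by no such probe set and were not analysed here. The set holds 1 mismatch repair gene, MSH6, beside the genes its name describes.

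The cells were IMR32, an established human neuroblastoma line, as a single clone that carries the tetracycline repressor and a short hairpin RNA against CDK2, selected with blasticidin and zeocin. Doxycycline switches the hairpin on, and RNA was hybridised to 3 Affymetrix U133 Plus 2.0 arrays at each of 0, 8, 24, 48 and 72 h, 15 arrays in all. No label states the unit of time, and hours is the reading used here. No arm without doxycycline was used, so time in culture, doxycycline and loss of CDK2 cannot be told apart. Nothing says that the 3 arrays of a time came from separate cultures, so p-values measure the spread between these arrays, and their number limits the precision.

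Homologous recombination repairs a broken chromosome by copying the sister chromatid. The MRE11, RAD50 and NBN complex binds the broken end, nucleases cut one strand back, BRCA1, PALB2 and BRCA2 prepare the strand for pairing, and motor proteins and helicases finish the exchange. The Fanconi pathway frees replication forks stopped at crosslinks between the strands by attaching ubiquitin to FANCI and FANCD2. ATM and ATR are the kinases that signal the damage, and CHEK2 and CHEK1 carry the signal on to stop the cell cycle. Many of these genes are transcribed mostly in S phase, and E2F factors are known to bind several of their promoters.

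Signals are the authors' MAS5 values, a linear intensity scaled so that every array has the same trimmed mean. Changes are differences of log2(signal + 16) between means of 3 arrays, which understates the change of dim genes. A gene is called where its adjusted p from limma, by Benjamini-Hochberg over all 11774 genes tested, is under 0.05. Each gene is given by its probe set with the highest mean, and the level of one probe set is not set against that of another. All 31 measured members passed the filter on dim probe sets, with 57 of their probe sets.

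The CDK2 probe set read 100.8, 92.6 and 90.2 at 8 h and 30.0, 40.0 and 20.2 at 72 h, against 245.5, 236.0 and 213.7 at 0 h. CDK2 was thus lower in every later array than in any 0 h array. Of 13 noradrenergic neuroblastoma markers 11 had a probe set and 10 of these averaged over 100, among them MYCN, GATA3 and CHGA. Immune, endothelial and epithelial markers stayed at summed signals of 31.7 to 91.2 on each array. Fibroblast markers summed to 1636 to 1950 at 72 h, against 1193 to 1484 at 0 h. Of the 6 that were tested, 4 were called higher and 1 lower at 72 h, against 32.8% and 22.7% of all genes. LUM averaged 13.7 at 0 h and 346.3 at 72 h, and PDGFRA, the brightest at 0 h, 838.5 and 679.2. Replicate 3 had the highest score of its time on the second principal component (8.94% of the variance), and the arrays labelled 72 h replicate 3 and 8 h replicate 3 had the lowest array weights, 0.356 and 0.405.

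Most of the members fell, and they did so late. At 72 h, 26 of the 31 were called lower and 4 higher, against 22.7% and 32.8% of all genes tested. At 48 h, 25 were lower and 5 higher, against backgrounds of 17.7% and 26.3%. At 24 h, 2 were lower and 2 higher, close to the backgrounds of 5.72% and 7.74%. At 8 h none was called by limma in either direction, beside 0.357% and 0.0934% of all genes, although CDK2 was already lower, and 3 members were lower and 0 higher at an unadjusted p under 0.05, against 3.34% and 6.14% of all genes. The median change of the 31 members was 0.01, -0.10, -0.92 and -1.40 at 8, 24, 48 and 72 h, and the median over all genes was 0.02, 0.05, 0.08 and 0.10. These comparisons share the 0 h arrays. In RNA from whole cultures, fewer cells expressing a gene and less RNA of it per cell cannot be told apart.

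**Figure D1:**
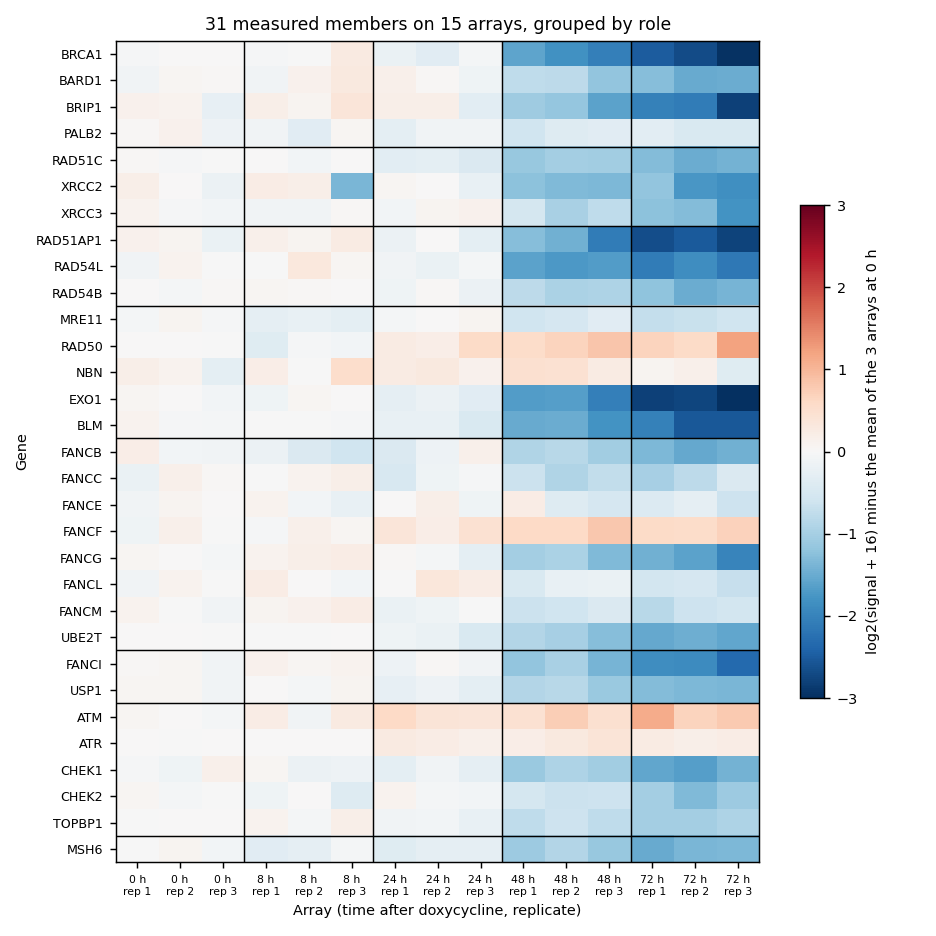
Difference of log2(signal + 16) from the mean of the 3 arrays at 0 h, as colour, for the 31 measured members (rows, grouped by role) on the 15 arrays (columns, by time). In 26 rows the columns at 72 h are blue, and the rows of RAD50, FANCF, ATM and, faintly and depending on the scaling, ATR are red from 48 h on.

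Sequences around the starts of 6 members are shown. BRCA1, RAD51AP1 and EXO1 had the largest fall of their role, and FANCF and RAD50 were higher at the late times. MSH6 is the only member of its role, so its having the largest fall there was fixed in advance. The sequences are from RefSeq, build GRCh38.p14. They run from 250 bases before the transcript start to 50 bases after it, 5′ to 3′ on the gene's strand. Capitals mark the letters TTCCCGC, or TTCGCGC, or TTGCCGC, or TTGGCGC on either strand, the inner part of the site that E2F factors bind. The BRCA1 window is chr17:43125315-43125614 on the minus strand, RAD51AP1 is chr12:4538640-4538939 on the plus strand, and EXO1 is chr1:241847954-241848253 on the plus strand. MSH6 is chr2:47782895-47783194 on the plus strand, FANCF is chr11:22625774-22626073 on the minus strand, and RAD50 is chr5:132556727-132557026 on the plus strand.
BRCA1: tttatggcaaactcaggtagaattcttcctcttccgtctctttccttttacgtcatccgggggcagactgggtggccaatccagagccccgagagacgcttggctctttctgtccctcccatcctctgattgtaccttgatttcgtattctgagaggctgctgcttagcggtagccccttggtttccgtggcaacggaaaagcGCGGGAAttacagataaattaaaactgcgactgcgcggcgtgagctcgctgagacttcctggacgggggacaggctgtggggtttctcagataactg
RAD51AP1: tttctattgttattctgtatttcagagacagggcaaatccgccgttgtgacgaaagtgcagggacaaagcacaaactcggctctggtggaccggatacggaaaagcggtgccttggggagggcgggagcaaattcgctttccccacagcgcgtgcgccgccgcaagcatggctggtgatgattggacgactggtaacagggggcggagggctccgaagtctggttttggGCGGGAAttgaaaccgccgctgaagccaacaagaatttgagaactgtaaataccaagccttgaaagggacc
EXO1: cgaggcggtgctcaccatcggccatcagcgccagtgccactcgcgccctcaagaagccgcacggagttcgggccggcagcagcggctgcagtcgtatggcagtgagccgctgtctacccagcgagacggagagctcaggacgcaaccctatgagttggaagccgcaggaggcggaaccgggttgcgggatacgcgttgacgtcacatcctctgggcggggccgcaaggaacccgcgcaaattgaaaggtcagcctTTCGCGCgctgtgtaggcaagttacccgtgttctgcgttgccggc
MSH6: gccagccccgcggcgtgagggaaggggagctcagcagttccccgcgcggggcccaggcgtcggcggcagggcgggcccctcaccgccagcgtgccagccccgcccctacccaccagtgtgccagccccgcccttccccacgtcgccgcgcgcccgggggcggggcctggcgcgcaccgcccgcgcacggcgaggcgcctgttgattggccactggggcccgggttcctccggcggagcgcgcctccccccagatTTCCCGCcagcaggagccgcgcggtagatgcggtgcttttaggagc
FANCF: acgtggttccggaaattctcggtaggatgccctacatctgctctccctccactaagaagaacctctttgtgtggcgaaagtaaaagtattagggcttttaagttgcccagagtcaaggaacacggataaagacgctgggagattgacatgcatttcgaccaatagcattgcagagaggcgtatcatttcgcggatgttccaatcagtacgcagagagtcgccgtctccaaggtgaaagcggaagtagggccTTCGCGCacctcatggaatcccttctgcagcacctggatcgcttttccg
RAD50: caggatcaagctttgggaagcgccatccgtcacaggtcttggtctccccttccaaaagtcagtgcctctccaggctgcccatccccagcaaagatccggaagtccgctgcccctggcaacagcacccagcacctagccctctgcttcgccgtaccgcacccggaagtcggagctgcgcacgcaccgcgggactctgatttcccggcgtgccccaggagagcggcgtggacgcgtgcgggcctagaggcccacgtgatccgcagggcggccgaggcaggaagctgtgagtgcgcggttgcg

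In the windows shown, the marked letters begin 47 bases before the BRCA1 start and 21 before that of RAD51AP1, and at bases 6, 5 and 2 after the starts of EXO1, MSH6 and FANCF. BRCA1 and EXO1 each have a second window, not shown, that holds none of these letters, and a gene counts below as holding a motif where any of its windows does. The RAD50 window holds none. FANCG, XRCC2 and CHEK1 also had the largest fall of their role on the log2 scale used here, and ATM and ATR were also higher. Their windows are not shown. Those of FANCG and XRCC2 hold these letters, and those of CHEK1, ATM and ATR hold none. RefSeq windows were matched for 32 of the 35 members, and not for FANCI, which also had the largest fall of its role. Letters for E2F were searched in 2 forms. The form searched first, of 8 letters (TTTCCCGC, or TTTCGCGC, or TTTGCCGC, or TTTGGCGC, either strand), was in 7 of the 32 members (21.9%), against 3.99% of 27305 genes with a window and 6.69% of the 9657 tested genes with one. The shorter form marked above, which lies inside the longer one, was added after the members' windows had been read with that result in hand, and its count is therefore no independent description. It was in 19 of 32 members (59.4%), against 15.3% of all genes with a window and 25.3% of tested genes.

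By direction, the 8-letter form was in 5 of 24 members called lower at 72 h (20.8%) and in 0 of the 4 called higher, against 10.3% and 4.60% of all tested genes called lower and higher. The shorter form was in 16 of the 24 (66.7%) and in 1 of the 4, FANCF, against 34.6% and 19.9%. A pair of other motifs was searched on both strands. The cell cycle homology region (TTTGAA or TTCGAA) was in 5 of 32 members (15.6%), against 19.5% of all genes and 15.5% of tested genes. The CCAAT box (CCAAT) was in 17 of 32 (53.1%), against 39.7% and 43.6%. No test was run on these shares, base composition was not matched, and a match of letters is not a bound site.

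BRCA1, BARD1, BRIP1 and PALB2 were all called lower at 72 h and at 48 h. BRCA1, a ubiquitin ligase subunit that promotes resection, read 641.8, 667.4 and 665.2 at 0 h, 643.7, 648.0 and 792.1 at 8 h, 574.0, 515.9 and 631.0 at 24 h, 208.8, 174.1 and 145.7 at 48 h and 103.1, 88.7 and 70.9 at 72 h. Every 48 h and 72 h array lay far below the 0 h arrays, and the 24 h arrays lay just below them. The change was -2.71 ± 0.13 (SE; adjusted p = 8.03e-12) at 72 h and -1.82 ± 0.13 (SE; adjusted p = 4.52e-09) at 48 h. BARD1, the partner of BRCA1 in the ligase, changed by -1.43 ± 0.13 (SE; adjusted p = 3.26e-08) at 72 h. BRIP1, a helicase that binds BRCA1, changed by -2.30 ± 0.19 (SE; adjusted p = 1.32e-08). PALB2, which joins BRCA1 to BRCA2, had the smallest fall of this group and read 308.8, 330.7 and 267.7 at 0 h, 280.1, 234.7 and 312.1 at 8 h, 241.7, 281.3 and 276.7 at 24 h, 192.9, 228.2 and 234.3 at 48 h and 238.2, 216.0 and 216.3 at 72 h. Its 48 h and 72 h arrays were below all 0 h arrays, with no further drop after 48 h, and the 72 h change was -0.41 ± 0.11 (SE; adjusted p = 0.00447).

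RAD51C, XRCC2 and XRCC3, which act together in strand exchange, all fell at both late times. RAD51C read 658.5, 626.3 and 635.5 at 0 h, 647.8, 606.2 and 640.1 at 8 h, 513.6, 520.9 and 471.2 at 24 h, 284.4, 305.1 and 304.9 at 48 h and 251.1, 219.2 and 228.9 at 72 h. The replicates were tight, and the 24 h arrays were already below every 0 h array. It was called lower at 24 h (-0.34 ± 0.07 SE, adjusted p = 0.00489) and changed by -1.40 ± 0.07 (SE; adjusted p = 3.68e-11) at 72 h. XRCC2 read 325.3, 284.7 and 248.9 at 0 h, 332.6, 323.5 and 100.3 at 8 h, 298.5, 289.3 and 241.6 at 24 h, 112.5, 104.0 and 102.4 at 48 h and 116.6, 73.5 and 68.2 at 72 h, on a probe set whose suffix warns of cross-hybridisation. The third 8 h array stood alone at about the level of 48 h, and the 48 h and 72 h arrays were all below the 0 h arrays. The 72 h change of XRCC2 was -1.59 ± 0.29 (SE; adjusted p = 0.000133). XRCC3 changed by -1.44 ± 0.16 (SE; adjusted p = 5.68e-07). Its 72 h arrays read 11.8, 10.3 and 2.6, below the filter signal of about 16.6. On the linear scale its mean at 72 h was 0.168 of that at 0 h, against 0.301 for XRCC2 and 0.364 for RAD51C.

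RAD51AP1, RAD54L and RAD54B fell too. RAD51AP1, which stimulates strand pairing, read 763.9, 743.0 and 607.0 at 0 h, 786.1, 742.7 and 831.5 at 8 h, 623.6, 703.3 and 570.6 at 24 h, 280.5, 246.3 and 151.8 at 48 h and 97.7, 108.1 and 88.0 at 72 h. The 0 h arrays overlapped both the 8 h arrays and the 24 h arrays, and those at 48 h and 72 h were below all of these. The change was -2.66 ± 0.15 (SE; adjusted p = 1.24e-10) at 72 h. RAD54L, a motor protein that moves along DNA, changed by -2.03 ± 0.11 (SE; adjusted p = 5.79e-11). Its relative RAD54B read 258.4, 247.2 and 263.7 at 0 h, 269.8, 261.8 and 257.4 at 8 h, 232.8, 262.3 and 226.0 at 24 h, 142.0, 124.5 and 127.7 at 48 h and 101.1, 80.8 and 87.4 at 72 h. Here too the late arrays did not overlap those at 0 h, with a change of -1.37 ± 0.09 (SE; adjusted p = 9.61e-10) at 72 h.

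The genes for break ends, resection and dissolution did not move together. EXO1, the nuclease of long-range resection, read 476.6, 464.0 and 432.6 at 0 h, 418.1, 477.4 and 462.9 at 8 h, 379.1, 404.5 and 359.1 at 24 h, 133.3, 134.2 and 98.6 at 48 h and 51.6, 54.6 and 39.3 at 72 h. It had the largest fall of all 31 members, -2.88 ± 0.11 (SE; adjusted p = 2.03e-12), and its 24 h arrays were already below those at 0 h without passing the threshold (-0.26 ± 0.11 SE, adjusted p = 0.153). BLM, the helicase that resolves joined molecules, changed by -2.37 ± 0.13 (SE; adjusted p = 3.80e-11).

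The 3 genes of the complex that holds broken ends differed. MRE11, its nuclease, read 135.7, 151.3 and 138.6 at 0 h, 115.6, 119.3 and 112.6 at 8 h, 134.5, 143.6 and 150.6 at 24 h, 87.6, 95.6 and 108.8 at 48 h and 80.0, 82.7 and 87.9 at 72 h. The 8 h arrays were below the 0 h arrays, the 24 h arrays overlapped them and the late arrays were below again. The change of MRE11 was -0.66 ± 0.10 (SE; adjusted p = 1.52e-05) at 72 h. RAD50, the ATPase of the same complex, read 234.0, 235.0 and 232.8 at 0 h, 177.6, 226.5 and 220.8 at 8 h, 280.2, 272.1 and 355.4 at 24 h, 347.5, 382.3 and 430.8 at 48 h and 383.1, 357.3 and 563.2 at 72 h. The 8 h arrays of RAD50 were all below the 0 h arrays. On its other probe sets the 8 h arrays overlapped those at 0 h or were all above them. Every array from 24 h on was above the 0 h arrays, and replicate 3 was the highest at each of these times. RAD50 was called higher at 48 h (0.68 ± 0.14 SE, adjusted p = 0.000818) and at 72 h (0.82 ± 0.14 SE, adjusted p = 9.40e-05), but not at 24 h (0.34 ± 0.14 SE, adjusted p = 0.128). NBN, the subunit that recruits ATM, read 887.2, 837.7 and 636.1 at 0 h, 890.7, 773.0 and 1129.6 at 8 h, 928.2, 961.4 and 859.1 at 24 h, 1091.1, 1067.0 and 928.4 at 48 h and 821.0, 863.1 and 603.2 at 72 h. Its 72 h arrays overlapped those at 0 h, and its 48 h arrays were all above them. NBN was called higher at 48 h (0.39 ± 0.14 SE, adjusted p = 0.036) and not at 72 h (-0.05 ± 0.14 SE, adjusted p = 0.8), and without 0 h replicate 3 the 48 h change was 0.25 with an adjusted p of 0.199. Without 48 h replicate 1 or 2 it was 0.35 and 0.36, with adjusted p of 0.106 and 0.0982. The call was also lost with arrays centred on their medians (0.29, adjusted p = 0.124), with the mean of the NBN probe sets (0.21, adjusted p = 0.087), with no filter (adjusted p = 0.071) and with a robust prior (adjusted p = 0.0622). Between 48 h and 72 h NBN changed by -0.44 ± 0.14 (SE; adjusted p = 0.0612), and with the replicate number as a block the adjusted p was 0.0374.

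**Figure D2:**
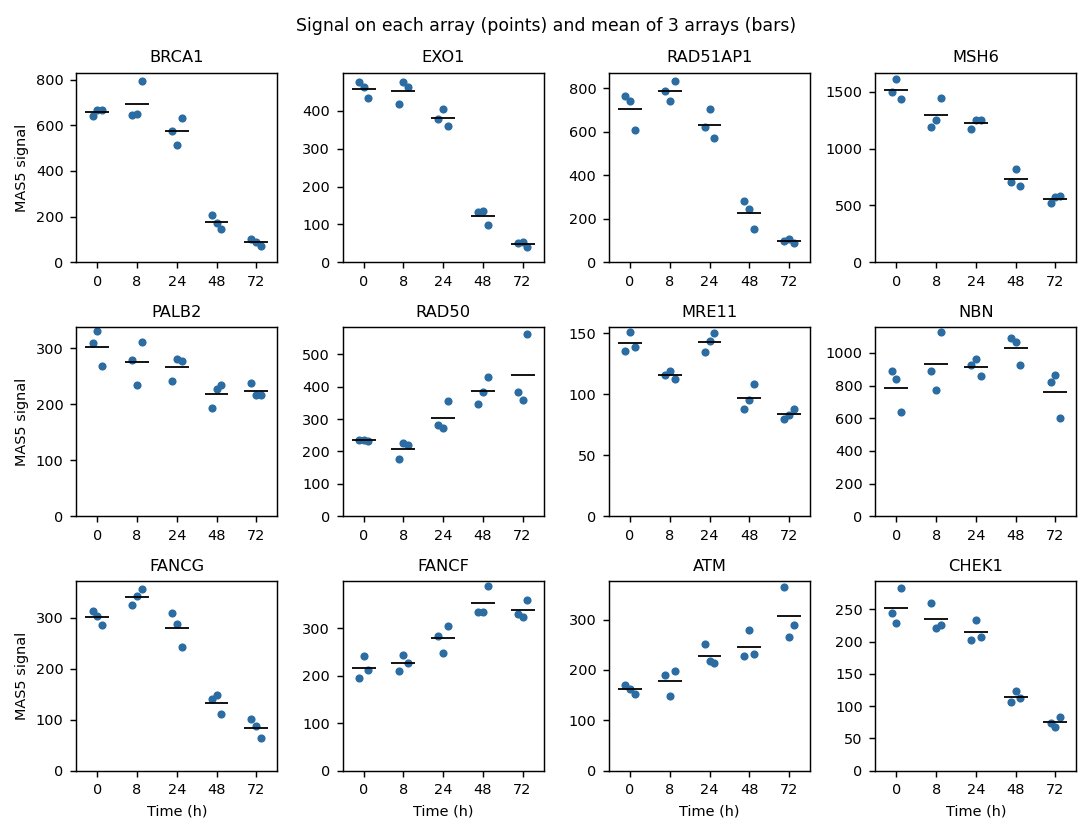
MAS5 signal (linear, from 0) against time for 12 members, with a point per array and a bar at the mean of 3. BRCA1, EXO1, RAD51AP1, MSH6, FANCG and CHEK1 drop between 24 h and 48 h and again by 72 h, RAD50, FANCF and ATM are above their 0 h arrays from 24 h on, and NBN overlaps at 72 h.

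The Fanconi core complex, which attaches ubiquitin to FANCI and FANCD2, had 7 of its 8 measured members lower and 1 higher at 72 h, its E2 enzyme UBE2T included. Of all genes tested, 22.7% were lower and 32.8% higher at that time. FANCG, an adaptor subunit, read 312.9, 303.9 and 285.9 at 0 h, 325.6, 341.8 and 356.4 at 8 h, 309.9, 288.4 and 242.7 at 24 h, 140.6, 148.4 and 110.1 at 48 h and 100.8, 88.1 and 64.1 at 72 h. The 8 h arrays were all above the 0 h arrays (change 0.17 ± 0.13 SE, adjusted p = 0.738), and the late arrays were all below them. FANCG changed by -1.68 ± 0.13 (SE; adjusted p = 6.39e-09) at 72 h, the largest fall of the group on the log2(signal + 16) scale. On the linear scale its mean at 72 h was 0.280 of that at 0 h, and that of FANCB, a dimmer probe set, was 0.165. FANCE, which contacts FANCD2, read 95.6, 112.7 and 106.5 at 0 h, 113.2, 97.9 and 88.3 at 8 h, 105.7, 119.6 and 95.1 at 24 h, 125.4, 76.7 and 68.6 at 48 h and 74.4, 84.5 and 62.0 at 72 h. One 48 h array stood above the 0 h arrays and the other two below, and only the 72 h arrays were all lower. FANCE was called at 72 h (-0.44 ± 0.16 SE, adjusted p = 0.0289) and not at 48 h (-0.22 ± 0.16 SE, adjusted p = 0.284), and it did not pass the F test over all times. Without 48 h replicate 1 the 48 h change was -0.45, with an adjusted p of 0.017. The 72 h call was lost without 0 h replicate 2 or 3 (adjusted p = 0.0918 and 0.0663) and without 72 h replicate 1 or 3 (adjusted p = 0.0546 and 0.112).

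FANCF, an adaptor of the same complex, ran the other way and read 195.7, 242.7 and 213.3 at 0 h, 209.7, 243.9 and 226.6 at 8 h, 283.8, 249.1 and 304.7 at 24 h, 334.0, 334.8 and 389.5 at 48 h and 329.6, 324.7 and 360.6 at 72 h. All arrays from 24 h on were above the 0 h arrays, with the 48 h and 72 h readings close together. FANCF was called higher at 24 h (0.34 ± 0.10 SE, adjusted p = 0.031), 48 h (0.66 ± 0.10 SE, adjusted p = 3.72e-05) and 72 h (0.61 ± 0.10 SE, adjusted p = 5.42e-05). The 24 h call was lost without 0 h replicate 1 or 3 (adjusted p = 0.136 and 0.0862) and without 24 h replicate 1 or 3 (adjusted p = 0.0871 and 0.128). The second FANCF probe set changed by 0.41 at 48 h and by 0.10 at 72 h, where it was not called (adjusted p = 0.434, limma over probe sets).

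The other core members were given by their changes at 72 h. UBE2T changed by -1.51 ± 0.09 (SE; adjusted p = 3.21e-10) and FANCB by -1.44 ± 0.16 (SE; adjusted p = 8.72e-07). FANCC changed by -0.74 ± 0.15 (SE; adjusted p = 0.000466) and FANCM, the translocase that brings the complex to DNA, by -0.67 ± 0.12 (SE; adjusted p = 9.24e-05). FANCL, the ubiquitin ligase of the complex, changed by -0.58 ± 0.10 (SE; adjusted p = 0.000106). The 48 h call of FANCL (-0.29 ± 0.10 SE, adjusted p = 0.0282) was lost without 0 h replicate 2 or 3 (adjusted p = 0.118 and 0.0593) or 48 h replicate 1 (adjusted p = 0.139).

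The substrate of that complex and the enzyme that reverses its work both fell. FANCI read 740.3, 753.2 and 661.8 at 0 h, 789.0, 752.3 and 768.3 at 8 h, 647.8, 732.0 and 669.9 at 24 h, 309.2, 360.5 and 261.4 at 48 h and 187.1, 183.6 and 128.6 at 72 h. Its arrays at 24 h overlapped those at 0 h, while the late ones were far below, and the 72 h change was -2.02 ± 0.12 (SE; adjusted p = 1.77e-10). USP1, which takes ubiquitin off FANCD2, read 2717.2, 2701.8 and 2424.7 at 0 h, 2629.2, 2489.7 and 2767.3 at 8 h, 2194.2, 2347.8 and 2128.7 at 24 h, 1421.8, 1453.5 and 1197.1 at 48 h and 1052.5, 1015.7 and 997.4 at 72 h. All arrays from 24 h on were below the 0 h arrays, though the 24 h change missed the threshold (-0.23 ± 0.08 SE, adjusted p = 0.0592), and the 72 h change was -1.34 ± 0.08 (SE; adjusted p = 1.35e-10).

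Of the 5 checkpoint genes, ATM and ATR were called higher at both late times, ATR not with every array centred on its median, and CHEK1, CHEK2 and TOPBP1 were called lower. ATM, the kinase that answers double-strand breaks, read 169.2, 162.0 and 152.9 at 0 h, 189.2, 148.2 and 198.5 at 8 h, 250.9, 216.6 and 212.9 at 24 h, 227.4, 279.7 and 231.4 at 48 h and 364.7, 265.6 and 288.4 at 72 h. All arrays from 24 h on were above the 0 h arrays. The suffix of this ATM probe set, like that of the XRCC2 probe set, warns of cross-hybridisation. ATM was called higher at 24 h (0.45 ± 0.12 SE, adjusted p = 0.0225), 48 h (0.56 ± 0.12 SE, adjusted p = 0.00137) and 72 h (0.85 ± 0.12 SE, adjusted p = 1.48e-05). The 24 h call was lost without 0 h replicate 2 or 3 (adjusted p = 0.0596 and 0.0799) or 24 h replicate 1 (adjusted p = 0.0963).

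ATR, the kinase that answers stalled replication, read 343.9, 341.6 and 344.5 at 0 h, 346.1, 345.2 and 347.8 at 8 h, 418.1, 401.0 and 385.9 at 24 h, 399.4, 425.9 and 457.5 at 48 h and 408.9, 392.4 and 404.3 at 72 h. The 0 h and 8 h arrays lay within a narrow band, and all later arrays were above it. ATR was not called at 24 h (0.22 ± 0.07 SE, adjusted p = 0.0504), and its later changes were small, 0.30 ± 0.07 (SE; adjusted p = 0.00208) at 48 h and 0.22 ± 0.07 (SE; adjusted p = 0.0144) at 72 h. With every array centred on its median these were 0.20 and 0.10, with adjusted p of 0.0799 and 0.369. The median change of all genes at 72 h was -0.01 with that centring and 0.10 without it, so the call of ATR depends on the scaling.

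CHEK1, the kinase that ATR activates, read 243.9, 228.5 and 282.4 at 0 h, 259.7, 220.6 and 225.2 at 8 h, 202.8, 232.7 and 207.0 at 24 h, 106.8, 123.7 and 112.9 at 48 h and 74.2, 68.2 and 83.0 at 72 h. The late arrays were below every 0 h array, and the change was -1.55 ± 0.10 (SE; adjusted p = 8.93e-10) at 72 h. CHEK2, which ATM activates, changed by -1.14 ± 0.11 (SE; adjusted p = 1.72e-07). TOPBP1, the activator of ATR, changed by -0.98 ± 0.07 (SE; adjusted p = 4.45e-09). MSH6, which recognises mismatches, read 1496.1, 1608.6 and 1432.8 at 0 h, 1193.6, 1255.1 and 1443.3 at 8 h, 1174.1, 1252.9 and 1248.0 at 24 h, 705.4, 818.3 and 674.2 at 48 h and 523.5, 570.5 and 583.3 at 72 h. The 24 h arrays were all below the 0 h arrays, and the late arrays further below. MSH6 changed by -0.30 ± 0.09 (SE; adjusted p = 0.0277) at 24 h and -1.41 ± 0.09 (SE; adjusted p = 2.21e-10) at 72 h. The 24 h call was lost without 0 h replicate 1 or 2 (adjusted p = 0.0672 and 0.116) and without 24 h replicate 1 or 3 (adjusted p = 0.0953 and 0.0555).

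**Figure D3:**
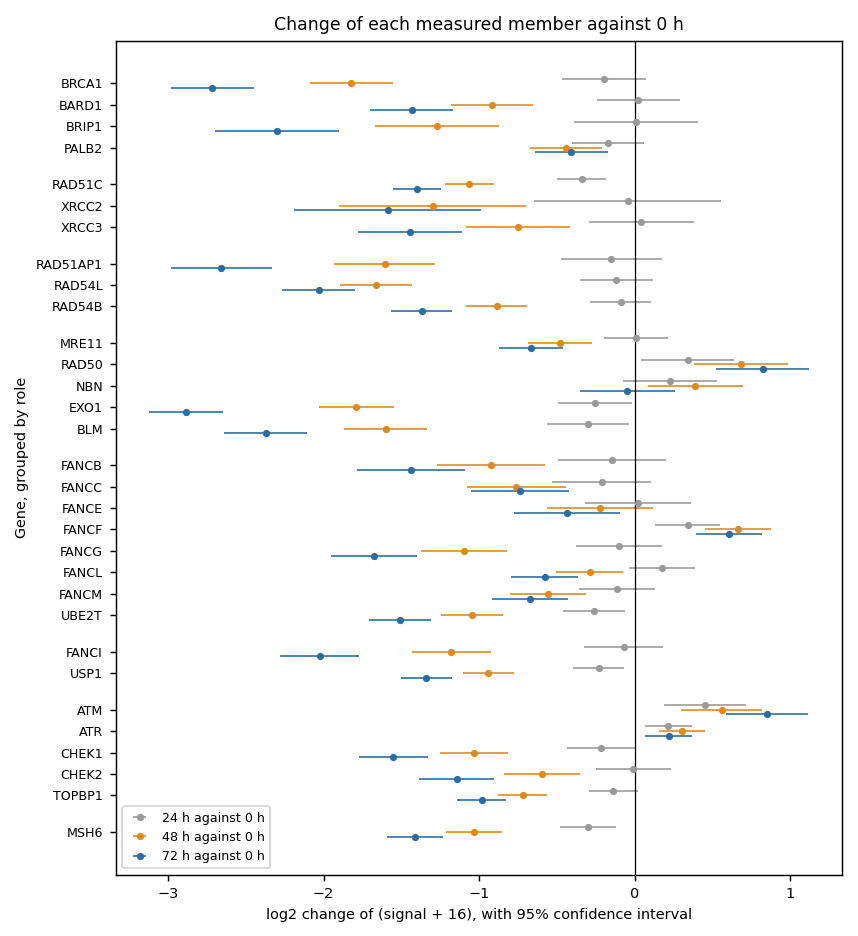
Change of log2(signal + 16) at 24, 48 and 72 h against 0 h for each measured member, with the 95% confidence interval from limma. The 72 h points of the 26 members called lower lie left of 0, with EXO1 (-2.88) and BRCA1 (-2.71) farthest out, and RAD50, FANCF, ATM and, under this scaling, ATR lie to the right.

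The falls were larger from 24 h to 48 h, and most went on to 72 h. The median change of the 31 members was -0.73 from 24 h to 48 h and -0.40 from 48 h to 72 h. From 24 h to 48 h, 24 members were called lower and 1, FANCF, higher, against backgrounds of 10.5% and 12.4%. From 48 h to 72 h, 18 were called lower and none higher, against 6.14% and 4.54%. At an unadjusted p under 0.05, 1 was higher in that step, against 12.7% of all genes. From 8 h to 24 h, RAD51C was lower and RAD50 higher, against 3.24% and 2.54%. The RAD50 step was lost when any single array of 0, 8 or 24 h, or 48 h replicate 2, was left out, with adjusted p of 0.0545 to 0.2. The RAD51C step was lost without 8 h replicate 1 (adjusted p = 0.0523) or 24 h replicate 3 (adjusted p = 0.0683). The FANCF step from 24 h to 48 h was lost without 24 h replicate 1 or 2 (adjusted p = 0.0545 and 0.121) or 48 h replicate 3 (adjusted p = 0.136). All 26 members that were lower at 72 h had the larger drop between 24 h and 48 h, and 18 of them were called lower in both late steps. The same counts over all genes lower at 72 h are not given here, so these do not set the members apart. Their 48 h change was 49.9% to 108% of the 72 h change, with a median of 66.9%. Over all times, 29 of the 31 passed the moderated F test, against 57% of all genes, and the exceptions were NBN and FANCE.

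By size, 19 called members were lower by at least 1 on the log2 scale at 72 h, against 4.95% of all genes, and 13 at 48 h, against 2.51%. No member was called higher by that much, against 5.34% of all genes at 72 h and 2.37% at 48 h. EXO1, BRCA1, RAD51AP1, BLM, BRIP1, RAD54L and FANCI were lower by more than 2. The 4 called higher were all under 1.

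Probe sets of the same gene gave a further reading of the same RNA. Of the 57 member probe sets past the filter, 38 were lower and 8 higher at 72 h, against 19.3% and 27.1% of all probe sets tested. At 48 h, 37 were lower and 12 higher, against 13.8% and 20.8%, and at 24 h, 4 were lower and 5 higher, against 4% and 4.68%. At 72 h, 10 of the 17 members with several probe sets had all of them called one way and 6 had some. The same count over all genes with several probe sets is not given here. NBN had none called, and no member had probe sets called in opposite directions. All 3 RAD50 probe sets were higher at 72 h (0.82, 0.85 and 0.52), as were all 3 of ATM (0.85, 0.86 and 0.67). The second ATR probe set was not called (0.17, adjusted p = 0.297), nor was the second MRE11 probe set at 72 h (-0.30, adjusted p = 0.174). That MRE11 probe set was called higher at 24 h, by 0.61 (adjusted p = 0.0408, limma over probe sets).

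**Figure D4:**
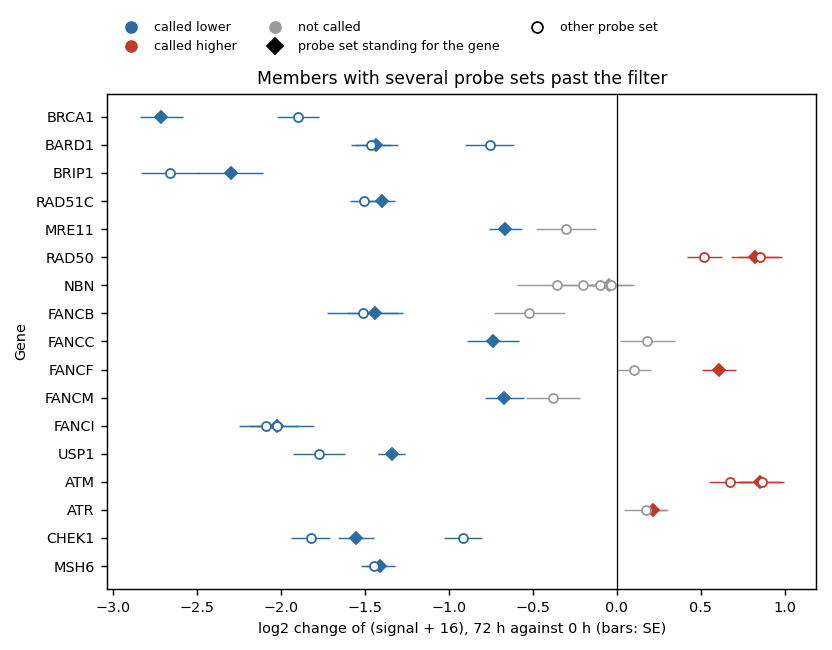
Change at 72 h against 0 h, with its SE, of every probe set past the filter for the 17 members with several. Diamonds stand for the gene in the text and circles are its other probe sets. The probe sets of BRCA1, BRIP1, FANCI, USP1, CHEK1 and MSH6 all lie left of 0, and those of RAD50 and ATM right of it.

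Other genes of the same processes were read from lists chosen with earlier results of these data known. Of 34 other homologous recombination genes tested, 24 were lower and 3 higher at 72 h (median -0.79), with MND1 at -2.65, RMI2 at -2.18 and RPA2 at -2.10, and with FBH1 at 0.61, HELQ at 0.41 and MUS81 at 0.34. Of 22 other checkpoint and break signalling genes, 13 were lower and 4 higher (median -0.44), including the phosphatases CDC25A (-2.64) and CDC25C (-2.46) and the CHEK1 adaptor CLSPN (-1.96), and including RAD17 (0.63), UIMC1 (0.57) and ABRAXAS1 (0.42). Of 16 other Fanconi and crosslink repair genes, 5 were lower and 3 higher (median -0.05), beside 22.7% and 32.8% of all genes.

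Of 9 end-joining genes, 5 were lower and 2 higher (median -0.40), against 22.7% and 32.8% of all genes tested. XRCC4 changed by -0.73, XRCC6 by -0.58 and XRCC5 by -0.53. The polymerase POLM changed by 0.71 and LIG4, the ligase of that route, by 0.70. POLM was dim, with a mean of 14.5 at 0 h, below the filter signal of about 16.6, and of 33.8 at 72 h. Of 30 base and nucleotide excision repair genes, 9 were lower and 9 higher (30% each, median 0.07), beside the same shares of all genes. UNG changed by -2.38, NEIL3 by -2.12 and FEN1 by -2.10. DDB2 changed by 1.05, XPC by 0.78 and XPA by 0.77. Of 2 other mismatch repair genes tested, MSH3 was lower (-0.73) and the other was not called.

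**Figure D5:**
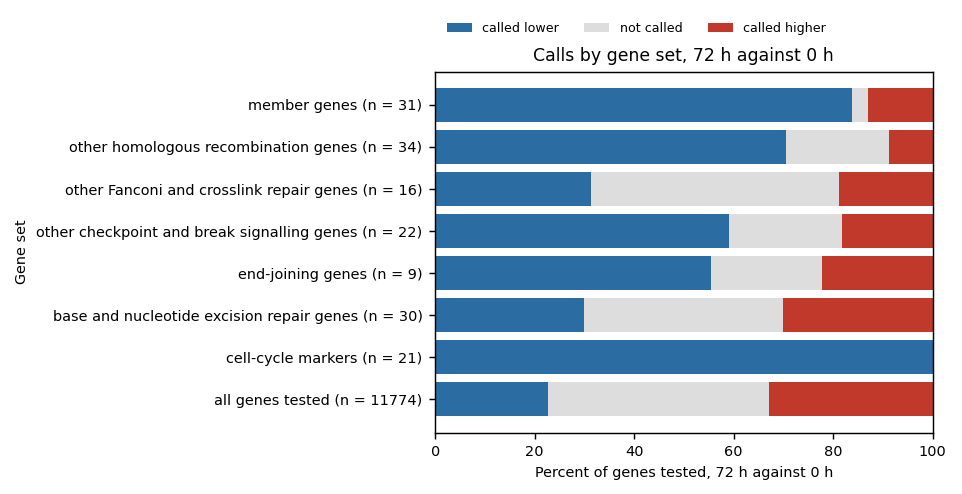
Share of the tested genes called lower (blue), not called (grey) and called higher (red) at 72 h against 0 h, in percent, for the members, the other repair lists, the cell-cycle markers and all 11774 genes tested. The members and the cell-cycle markers have the longest blue bars, with 26 of 31 and 21 of 21 called lower.

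Cell-cycle markers fell beside the members. All 21 were called lower at 72 h (median -2.38) and at 48 h (median -1.31), with CDK1 at -3.19, BIRC5 at -3.01 and BUB1 at -2.76 at 72 h. Their summed signal was 5200 to 5797 at 72 h, against 22834 to 24325 at 0 h. Of all genes tested, 22.7% were called lower at 72 h and 17.7% at 48 h. At 24 h, 1 of the 21 markers was called lower, beside 2 of the 31 members. Both counts were close to the 5.72% of all genes called lower at 24 h. The part of the change in cycling in the fall of the members was not tested.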

How the data were processed

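The deposited values are MAS5 signals, a linear intensity per probe set, made with GCOS per the submitters' processing notes, whose versions are not given in the sources used here. In the files each array's trimmed mean was 100.01. Probe sets were named from the platform annotation with symbols updated by gene ID: 41091 named 1 gene, 1801 several, 11721 none, and 62 were controls. Values were taken as log2(signal + 16). Probe sets at or above the median mean (a signal of about 16.6) were kept, 27307 in all, and the brightest by mean was used for each of 11774 genes. One model over all 15 arrays was fitted in R 4.3.3 with limma 3.58.1 (eBayes with a variance trend), using Benjamini-Hochberg adjustment at 0.05, and the fit was tested on simulated data.

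The members, lists and tests were chosen with earlier results of these data known. Every array is printed for, in each role, the called members with the largest and smallest 72 h change, for members called higher at any time, and for members called at 8 h or 24 h. Genes of the other lists are up to 3 lower and 3 higher by size at 72 h. Members with other values printed, and the probe sets singled out, were chosen after their values were seen. Promoter letters were counted in RefSeq windows in 4 searches. The 8-letter E2F form, the cell cycle homology region and the CCAAT box were searched first, the 7-letter E2F form was added after seeing the members' windows, and the comparison with tested genes was added after all of these. All 4 searches are reported.

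Labels give equal replicate numbers without saying that they pair arrays. Deviations of same-numbered arrays correlated at -0.08 to 0.35, and only the set of 48 h and 0 h (lowest 0.12) and that of 72 h and 48 h (lowest 0.12) had each of its 3 pairs above 0.1. Alternatives changed the pseudocount, scaling, filter, probe sets per gene, variance prior, array weights, arrays fitted, replicate block and threshold, and left out each array.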

Additional observations from a re-analysis of the deposited data

How the results depend on the processing

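No called change of a member gene at 48 h or 72 h reversed under any alternative run, and of the member changes at these times set against each alternative 1641 kept their side of the threshold, 22 lost it and 1 gained it. Calls lost at these times and not given above were MRE11 and FANCC at 48 h and ATR at 72 h with the mean of a gene's probe sets (-0.18, -0.29 and 0.20, adjusted p = 0.193, 0.0523 and 0.0545), FANCL at 48 h with quantile normalisation (-0.23, adjusted p = 0.0796), and FANCE at 72 h with no filter (-0.44, adjusted p = 0.057) or with replicates 1 and 2 alone (-0.33, adjusted p = 0.125). Counts at 24 h and in the steps moved most. Against 0 h at 24 h, genes lower numbered 1 with quantile normalisation, 4 with arrays centred on their medians, 1 with the robust prior, 5 with only the 2 groups compared and 4 with the replicate block, and genes higher numbered 0 with centring and 4 with the replicate block. Between 8 h and 24 h, genes higher numbered 0 with a pseudocount of 64, quantile normalisation, centring, no filter, the robust prior or only the 2 groups, and 2 with the mean of probe sets. In that step genes lower numbered 0 with only the 2 groups and 2 with the replicate block. Between 24 h and 48 h, genes higher numbered 0 with centring and 2 with the mean of probe sets, array weights, only the 2 groups or the replicate block. At 48 h, centring left 3 genes higher. Probe sets higher at 24 h numbered 1 with quantile normalisation, centring or no filter, and at 48 h 7 with centring. With replicates 1 and 2 alone, an alternative chosen after seeing the data, 1 gene was higher and 2 probe sets were higher at 24 h, and 0 genes were lower between 8 h and 24 h. Requiring also a log2 change of 1 gave 0 lower and 0 higher at 24 h, 13 lower and 0 higher at 48 h, 0 higher at 72 h, 0 and 0 between 8 h and 24 h, 8 lower and 0 higher between 24 h and 48 h, and 3 lower between 48 h and 72 h. The cause of these moves was not tested.

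Leaving out each array in turn gave 1 to 4 genes lower and 0 to 4 higher at 24 h, 24 to 25 and 4 to 5 at 48 h, and 25 to 26 and 4 to 4 at 72 h. The steps gave 0 to 2 lower and 0 to 1 higher from 8 h to 24 h, 23 to 25 and 0 to 2 from 24 h to 48 h, and 13 to 20 and 0 to 0 from 48 h to 72 h, and the F test gave 29 to 30. Probe sets gave 3 to 4 lower and 0 to 5 higher at 24 h, 36 to 39 and 9 to 12 at 48 h, and 37 to 41 and 7 to 8 at 72 h. The equal replicate numbers may mark no pairing, and the replicate block moved no count at 48 h or 72 h against 0 h by over 1.5 times, and between 48 h and 72 h it changed the call of no member but NBN. For 10 of 15 arrays the best partner at another time carried the same number. Dim probe sets near the filter limit what can be seen of small changes.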

Other observations

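A further pair of probe sets names both FSBP and RAD54B, which overlap, and was left out of the member values for that reason. They averaged 19.9 ± 3.13 and 38.1 ± 13.9 at 72 h, against 53.1 ± 10.1 and 126 ± 19.1 at 0 h (SD, n = 3 each).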
